A study of Mus musculus with 447 samples.

Results

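Neurod1 encodes NeuroD1, a basic helix-loop-helix transcription factor of endocrine and neuronal cells, and per the labels both genotypes of these data overexpress it. It was found by its symbol in both deposited matrices and is 1 of the 40824 genes they list. Its level was followed across 447 single cells, by genotype, by set and by cell state, together with the genes whose level moved with it from cell to cell.

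Pancreatic cells of mouse fetuses (stage E15.5) were measured with Smart-seq3, in which the polyadenylated RNA of 1 sorted cell per well is sequenced. The cells labelled Pdx1CreNgn3KONeurod1OE, here Ngn3KO, carried Cre under Pdx1, a gene of early pancreatic progenitors, overexpressed Neurod1 and lacked Ngn3 (gene Neurog3). The cells labelled Pdx1CreNeurod1OE, here Neurod1OE, carried the same Cre and overexpressed Neurod1 with Ngn3 left in place. For such mice the series' design text names the inducible form Pdx1CreER, a floxed Ngn3 allele and a sort for GFP, and it does not say when Cre was induced. A number in the titles gives 2 sets: of the 235 Ngn3KO cells all but 30 are in set 2 and 30 in set 3, and of the 212 Neurod1OE cells all but 95 are in set 2 and 95 in set 3. What the sets stand for is not stated, and they were kept apart as batches. Cells without overexpressed Neurod1 were not analysed here, and GFP is not among the listed genes. Reads of the added and of the animal's own Neurod1 were counted under 1 name and cannot be told apart.

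In the normal fetal pancreas Neurog3 is switched on for a short time in progenitors of the epithelial trunk, and Neurod1 is among the genes it activates. NeuroD1 binds DNA as a partner of E-proteins at a short motif called the E-box, and it stays on in maturing hormone cells, where it acts with factors such as Nkx2-2, Insm1, Pax6 and Isl1. Acinar and duct cells normally lack it. Forced NeuroD1 in early Pdx1-expressing progenitors is known to drive them towards endocrine cells, glucagon-producing alpha cells above all.

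Each genotype counted as 1 sample, because its labels give neither an animal nor a litter and the cells of a group are not replicates of its genotype. No test between genotypes was therefore made. Intervals are at 95%, exact Poisson for summed reads and Clopper-Pearson for the share of cells, and cover counting error only. Values are CPM, a gene's reads divided by all reads of the same cell or sum of cells and multiplied by 1000000, with the ERCC spike-ins left out. The total per cell ranged from 25769 to 2788066 reads. Its median was 344128 reads in Ngn3KO and 572744 reads in Neurod1OE cells of set 2, against 728074 and 695079 reads in the same genotypes of set 3. By Xist and Y-linked genes, set 2 held 0 male Ngn3KO cells, against 50 male and 64 female Neurod1OE cells, and set 3 held 30 male Ngn3KO cells, against 66 male and 29 female Neurod1OE cells. The predicted gene Gm12338 divided set 2 again: 97 Ngn3KO and 66 Neurod1OE cells had less than 10 CPM of it, and the other cells had more. In set 3 all 30 Ngn3KO cells had less, against 24 of the 95 Neurod1OE cells. The comparison of genotypes in set 3 is therefore for the most part also one of Gm12338 blocks. Neurog3, the deleted gene, had 3.06 CPM (2.69 to 3.47) in Ngn3KO and 3.89 CPM (3.46 to 4.36) in Neurod1OE cells of set 2, so its reads did not set the genotypes apart there. In set 3 it had 3.72 CPM (2.96 to 4.61) in Ngn3KO and 17.8 CPM (16.9 to 18.8) in Neurod1OE cells, with 89.02% of the Ngn3KO reads and 69.9% of the Neurod1OE reads in 1 cell each.

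Neurod1 (ENSMUSG00000034701.9 in GENCODE M21) lies on chromosome 2 of mm10, from 79452521 to 79456751 on the minus strand. It has 2 exons, and the coding sequence, 79453967 to 79455037, lies in exon 2. Nkx2-2, the gene whose level followed Neurod1 most closely over the groups below, lies on the same chromosome from 147177546 to 147194243, also on the minus strand. The windows run from 250 bases before to 50 bases after a RefSeq transcript start of both genes, which lies downstream of the GENCODE gene's 5′ end in each. They are shown because NeuroD1 acts through E-boxes, and Nkx2-2 was picked for its values in these same cells. They are RefSeq sequences of GRCm38.p6, given 5′ to 3′ on the minus strand at chr2:79456587-79456886 for Neurod1 and chr2:147186353-147186652 for Nkx2-2, with every E-box (CANNTG, which reads the same on the opposite strand) in capitals.
Neurod1: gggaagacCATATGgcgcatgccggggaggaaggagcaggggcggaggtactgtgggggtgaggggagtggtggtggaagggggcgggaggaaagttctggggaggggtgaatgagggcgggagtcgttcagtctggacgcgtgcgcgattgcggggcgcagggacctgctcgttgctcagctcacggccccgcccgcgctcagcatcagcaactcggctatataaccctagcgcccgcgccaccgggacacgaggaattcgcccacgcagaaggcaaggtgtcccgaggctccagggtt
Nkx2-2: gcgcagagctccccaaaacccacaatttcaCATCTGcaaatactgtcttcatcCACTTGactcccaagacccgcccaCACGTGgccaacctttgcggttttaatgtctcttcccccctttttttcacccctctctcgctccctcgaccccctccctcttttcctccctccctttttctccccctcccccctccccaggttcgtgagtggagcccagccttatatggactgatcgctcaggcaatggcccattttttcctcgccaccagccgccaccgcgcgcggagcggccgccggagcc
The Neurod1 window held 1 E-box, CATATG, which began 242 bases before the start. The Nkx2-2 window held 3, of which CATCTG began 220 bases before the start, CACTTG came next and the one nearest the start was CACGTG. Such letters are common: of 32851 mouse promoter windows of this length, from 27025 genes, 72.3% held CANNTG and 17.2% held CAGATG or its reverse complement CATCTG. A match describes letters in a window and not a bound site.

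In set 2, where nearly every cell carried glucagon (Gcg) RNA, Neurod1 was present in almost every cell of both genotypes. The lowest, median and highest cell had 0, 223 and 1577 CPM in Ngn3KO, against 16.7, 292 and 1779 CPM in Neurod1OE. At least 10 CPM was reached by 98.5% of Ngn3KO cells, all but 3 (95.8 to 99.7), and by 100% of Neurod1OE cells (96.9 to 100). The ranges of the genotypes covered each other almost fully, and the middle 50% of cells ran from 134.4 to 353 CPM in Ngn3KO and from 188.9 to 432 CPM in Neurod1OE. Summed over cells, Neurod1 stood at 292 CPM (288 to 296) in Ngn3KO and 332 CPM (328 to 336) in Neurod1OE, a log2 ratio of -0.19 (-0.22 to -0.15, counting error only). At least 2-fold lower in Ngn3KO were 1.67% of the 10010 genes measured in this comparison and at least 2-fold higher 0.859%, and Neurod1 was in neither class.

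A cell with at least 1000 CPM of Gcg is called a Gcg cell here, a cell with at least 1000 CPM of Cpa1, a digestive enzyme gene of acinar cells, a Cpa1 cell, and a cell below both limits a cell with neither. In the Ngn3KO Gcg cells of set 2, all its cells but 4, Neurod1 had a median of 223 CPM and a sum of 294 CPM (290 to 298), against 292 CPM and 347 CPM (342 to 351) in the Neurod1OE Gcg cells, all but 6 of the cells. The log2 ratio of the sums was -0.24 (-0.28 to -0.20), beside 1.44% of genes at least 2-fold lower and 0.921% at least 2-fold higher. The order of the genotypes depended on the sub-block of cells. Within Gm12338-positive Gcg cells the log2 ratio was 0.09, and within Gm12338-negative Gcg cells it was -0.52. Within female Gcg cells, which include 63 Neurod1OE cells, it was -0.46. The Gm12338-positive Neurod1OE cells, which were male wherever sex could be called, had a median of 252 CPM, against 327 CPM in the Gm12338-negative ones, while the same blocks of Ngn3KO had 222 and 224 CPM. The 1 genotype that held males and females therefore differed between its blocks, by medians, by as much as the genotypes differed from each other.

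Set 3 held the cells in which Neurod1 was scarce. Over all cells the lowest, median and highest were 0, 7.64 and 470 CPM in Ngn3KO, against 0, 180.5 and 1014 CPM in Neurod1OE. At least 10 CPM was reached by 12 of 30 Ngn3KO cells (40%, 22.7 to 59.4), against 87 of 95 Neurod1OE cells (91.6%, 84.1 to 96.3). The summed level was 30.4 CPM (28.1 to 32.8) in Ngn3KO and 217 CPM (214 to 221) in Neurod1OE, 7.16-fold by the plain sums. The log2 ratio, with 1 CPM added to each sum, was -2.80 (-2.93 to -2.67). This stood beside 31.8% of 10478 genes at least 2-fold lower and 5.96% at least 2-fold higher in Ngn3KO, and a median log2 ratio of -0.57 over all of them. The groups differed in what the cells were: 29 of the 30 Ngn3KO cells were Cpa1 cells, against 15 of the 95 Neurod1OE cells. A lower level per cell and a different make-up of cells cannot be told apart in the whole-group ratio.

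The remaining Ngn3KO cell of set 3 was a Gcg cell. It had 366 Neurod1 reads, or 470 CPM, with 76153 CPM of Gcg, and by itself held 54.6% of the Neurod1 reads of its group. It lay inside the range of the 31 Neurod1OE Gcg cells of the same set, whose lowest, median and highest values were 14.7, 213 and 772 CPM. Without the cell that held the most Neurod1 reads in each group, the log2 ratio over all cells of set 3 was -3.74. A single cell thus set the level of Ngn3KO in this set, and every Ngn3KO cell without Gcg had at most 102.1 CPM.

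**Figure D1:**
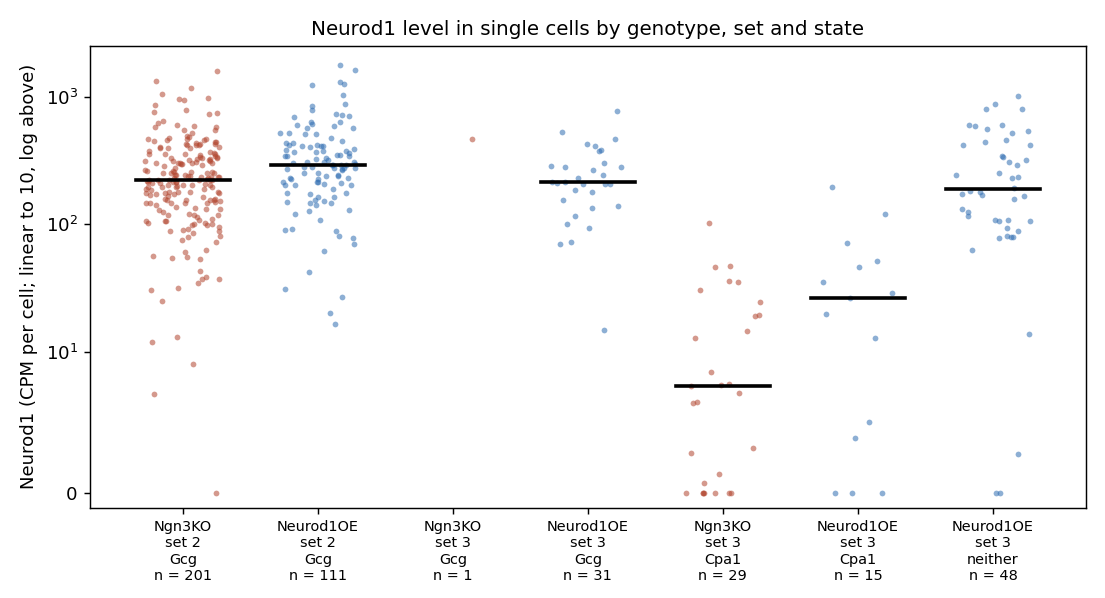
Neurod1 in CPM in each cell (points; the axis is linear to 10 CPM and logarithmic above), with Ngn3KO cells in red and Neurod1OE cells in blue, by set and state; bars are medians, and the 7 cells of set 2 with neither gene and the 4 cells past both limits are not drawn. Gcg cells of both genotypes and the Neurod1OE cells with neither gene centre on about the same level, while Cpa1 cells lie below 200 CPM.

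Within Cpa1 cells of set 3, Neurod1 was low in both genotypes. The 29 Ngn3KO cells had 0, 7.61 and 102.1 CPM (lowest, median, highest), against 0, 26.6 and 196.1 CPM in the 15 Neurod1OE cells, and 7 Ngn3KO and 3 Neurod1OE cells had no read. The median cell held 4 Neurod1 reads in Ngn3KO and 18 reads in Neurod1OE, and the ranges overlapped over most of their length. Summed, the level was 14.3 CPM (12.7 to 15.98) in Ngn3KO and 37.8 CPM (34.9 to 40.7) in Neurod1OE, a log2 ratio of -1.34 (-1.61 to -1.08), beside 18% of 9588 genes at least 2-fold lower and 4.37% at least 2-fold higher. With every cell thinned to 165298 reads, at least 10 CPM was reached by 38.5% of 26 Ngn3KO cells (20.2 to 59.4) and 66.7% of 15 Neurod1OE cells (38.4 to 88.2), against 37.9% and 66.7% before thinning. These shares describe the cells of 1 sample per genotype, and their difference was not tested.

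The Cpa1 cells with the most Neurod1 also carried hormone RNA. Of the 4 Neurod1OE Cpa1 cells with at least 50 CPM of Neurod1, 3 had at least 1000 CPM of hormone genes (Gcg, Ins1, Ins2, Sst, Ppy, Pyy and Ghrl summed). The richest, at 196.1 CPM of Neurod1, had 223968 CPM of them, most of it peptide YY (Pyy, 133277 CPM) and pancreatic polypeptide (Ppy, 90586 CPM), beside 2521 CPM of Cpa1. Only 1 Ngn3KO Cpa1 cell passed 50 CPM of Neurod1, at 102.1 CPM, and it had 6456 CPM of hormone genes and 4837 CPM of the granule protein gene Chga. Among the cells under 50 CPM, 1 of 28 Ngn3KO and 1 of 11 Neurod1OE cells reached 1000 CPM of hormone genes. Without the hormone-bearing cells, 27 Ngn3KO cells summed to 11.8 CPM and 11 Neurod1OE cells to 24.2 CPM. The log2 ratio of these sums, with 1 CPM added to each, was -0.97. Whether such wells held more than 1 cell was not tested.

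Neurod1OE cells of set 3 were the only group with many cells of every state. Its 31 Gcg cells had 14.7, 213 and 772 CPM of Neurod1 (lowest, median, highest), its 15 Cpa1 cells 0, 26.6 and 196.1 CPM, and its 48 cells with neither gene 0, 188.5 and 1014 CPM. The Gcg cells summed to 261 CPM (254 to 268), against 37.8 CPM (34.9 to 40.7) in the Cpa1 cells, a log2 ratio of 2.76 (2.61 to 2.90), beside 26% of 10683 genes at least 2-fold higher and 19.3% at least 2-fold lower. Against the cells with neither gene, at 294 CPM (288 to 300), the log2 ratio of the Gcg cells was -0.17, and its sign changed when each cell was weighted equally (0.33). There, 19.2% of 10839 genes were at least 2-fold lower in Gcg cells and 12.3% at least 2-fold higher. All 48 cells with neither gene came from a single genotype and set, and 33 of them were male. In set 2 only 3 Ngn3KO and 4 Neurod1OE cells had neither gene, with medians of 241 and 297 CPM.

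Marker genes differed between the states by level, and some also by presence. In set 3 the alpha-cell marker Irx1 had a read in 90.3% of Neurod1OE Gcg cells, 13.3% of Neurod1OE Cpa1 cells and 0% of Ngn3KO Cpa1 cells. Summed over cells, the alpha-cell markers Gcg, Irx1, Irx2, Ttr and Pcsk2 each stood at 10 CPM or more in the Gcg cells of 3 groups (Ngn3KO set 2 and Neurod1OE of both sets). Their sums also did so in the Neurod1OE cells of set 3 with neither gene, where Gcg is below the limit but not absent. Most of those cells had no read of Irx1 or of Irx2, however. Irx1 was read in 27.1% of them and summed to 11.6 CPM, and Irx2 was read in 29.2%. Ttr was not confined to these states, with a sum of 2000 CPM in the Neurod1OE Cpa1 cells. In Neurod1OE set 3 the summed level of Irx2, a homeobox gene of alpha cells, was 247 CPM in Gcg cells, 34.01 CPM in cells with neither gene and 0.513 CPM in Cpa1 cells, and that of Pcsk2, a prohormone convertase gene, was 2522, 551 and 66.2 CPM. The 6 acinar markers summed to 79997 CPM in the Ngn3KO Cpa1 cells, against 28644 CPM in the Neurod1OE Cpa1 cells. Acinar transcripts were not absent from Gcg cells: the acinar markers summed to 360 CPM in Ngn3KO and 363 CPM in Neurod1OE Gcg cells of set 2. In the cells with neither gene, 5 duct and trunk markers summed to 2415 CPM, against 94.2 CPM in the Gcg cells of the same group.

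By median, Neurod1 ran from the Gcg cells of Neurod1OE set 2 (292 CPM) through those of Ngn3KO set 2 (223 CPM) and Neurod1OE set 3 (213 CPM) and the Neurod1OE cells with neither gene (188.5 CPM) to the Cpa1 cells of Neurod1OE (26.6 CPM) and of Ngn3KO (7.61 CPM). The middle 50% of cells overlapped between all neighbours of this order except at the step to Cpa1 cells, where they ran from 106.1 to 427 CPM in cells with neither gene and from 4.51 to 48.6 CPM in Neurod1OE Cpa1 cells. Levels set across the 2 sets compare separate batches.

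Per length of annotated exons, Neurod1 was among the strongest of the transcription factor genes compared in Gcg cells. Its exons span 2729 bases, and its median was 81.5 CPM per kilobase in Ngn3KO Gcg cells of set 2, against 106.9 and 77.9 CPM per kilobase in Neurod1OE Gcg cells of set 2 and set 3. Of 28 genes, Neurod1 and the 27 members of a list of islet transcription factors, it ranked 3rd in each group, after Peg3, an imprinted zinc finger gene, and Isl1, a LIM homeodomain factor. The rank depends on the lengths, which join all annotated exons, 11694 bases for Pax6 and 13296 for Etv1. By plain CPM, Pax6, Etv1 and Runx1t1 also had higher medians than Neurod1 in each group. In Ngn3KO set 2, cells past both limits included, these were 507, 535 and 476 CPM, against 222 CPM. Nkx2-2 had 35.96 CPM per kilobase in Ngn3KO, against 36.5 and 36.8 CPM per kilobase in Neurod1OE of set 2 and set 3.

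From cell to cell Neurod1 varied about as widely as other islet transcription factors. Its coefficient of variation over Gcg cells was 0.835 in Ngn3KO set 2, 0.833 in Neurod1OE set 2 and 0.632 in Neurod1OE set 3. Of 19 other islet transcription factors, 11, 10 and 16 had a higher one in these groups, and Nkx6-1, a beta-cell factor, had the highest in each. At least 1000 CPM was reached by 4 Ngn3KO and 6 Neurod1OE Gcg cells of set 2 and by 1 Neurod1OE cell with neither gene.

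At the other end, 11 of 347 cells past the Gcg limit had under 30 CPM of Neurod1. A Ngn3KO cell of set 2 had 0 Neurod1 reads of 151024, which allows up to 19.9 CPM, beside 44675 CPM of Gcg and 1669 CPM of Isl1. Another Ngn3KO cell had 8 reads (11.9 CPM) with 197275 CPM of Gcg. A Neurod1OE cell of set 2 had 4 reads (20.03 CPM) with 76460 CPM of Gcg. Abundant Gcg RNA was thus found beside little or no Neurod1 RNA in single cells of both genotypes. What the Neurod1 RNA level had been earlier in those cells cannot be seen in these data.

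Among Gcg cells, Neurod1 did not follow Gcg. Spearman's rho between them was 0.05 in Ngn3KO cells of set 2, against -0.05 and -0.09 in Neurod1OE cells of set 2 and set 3. For these correlations Gcg cells include those past both limits, which leaves out 3 Ngn3KO and 4 Neurod1OE cells of set 2 and gives 32 Neurod1OE cells in set 3. The weakest Ngn3KO Gcg cells of set 2, 26 cells with 1000 to 10000 CPM of Gcg, had a median of 127.1 CPM of Neurod1, against 242, 257 and 218 CPM at 10000 to 50000, 50000 to 100000 and at least 100000 CPM of Gcg. In Neurod1OE set 2 the same bands had medians of 295, 297, 344 and 271 CPM, with no low band. Cycling Gcg cells, with at least 100 CPM of 6 mitotic genes, had a median of 196.9 CPM in 39 Ngn3KO cells and 402 CPM in 17 Neurod1OE cells of set 2, a bin of few cells, against 224 and 278 CPM in the non-cycling cells of these genotypes. Cells that also had at least 1000 CPM of ghrelin (Ghrl) had 178.3 CPM of Neurod1 in 23 Ngn3KO and 174.5 CPM in 9 Neurod1OE cells of set 2, against 229 and 299 CPM without it. In set 3 the order was the other way, with 302 CPM in 7 Neurod1OE cells with Ghrl and 208 CPM in the 25 without it.

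The number of genes that followed the Neurod1 level among Gcg cells differed between groups. Spearman's rho with Neurod1 was computed across the cells of a group for 6894 genes with a read in at least 50% of the Gcg cells of each group, and a limit of 0.3 in either direction was used. In Ngn3KO set 2, the group with the most cells, 0 genes (0%) reached 0.3 and 0 genes (0%) reached -0.3. The extremes were Etf1, a translation termination factor, at 0.26, and Sgpp1, a sphingosine phosphatase, at -0.27. In Neurod1OE set 2, 14 genes (0.203%) reached 0.3 and 18 genes (0.261%) reached -0.3. In Neurod1OE set 3, with 32 cells, the counts were 433 (6.28%) and 242 (3.51%). These are descriptions of cells that are not replicates and differ in depth, and no p-value goes with them. Neurod1 itself had a rho with total reads per cell of 0.10 in Ngn3KO set 2, -0.26 in Neurod1OE set 2 and 0.03 in Neurod1OE set 3. With Gm12338 it had -0.04, -0.27 and 0.02 in the same order. The share of genes past the limit was higher the fewer cells a group held, and the standard deviation of rho over genes was 0.071, 0.103 and 0.181 in the 3 groups. The same was seen within a genotype: the 47 Gm12338-positive Neurod1OE cells of set 2 alone gave 2.07% and 3.05% of genes.

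Which genes they were hardly carried over. Of the positive genes, 1 was shared by Neurod1OE set 2 (7.14% of its 14) and set 3 (0.231% of its 433), and it was Nkx2-2. Of the negative genes, the only shared one was the ribosomal protein gene Rps18 (5.56% of 18 and 0.413% of 242). These shares of the set 2 genes stand beside 6.28% of all genes positive and 3.51% negative in Neurod1OE set 3. Over all 6894 genes, rho in one group had a Pearson correlation near 0 with rho in another: 0.013 between Ngn3KO and Neurod1OE of set 2, -0.027 between Ngn3KO set 2 and Neurod1OE set 3, and 0.042 between the Neurod1OE sets. These run across genes, which are not independent.

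**Figure D2:**
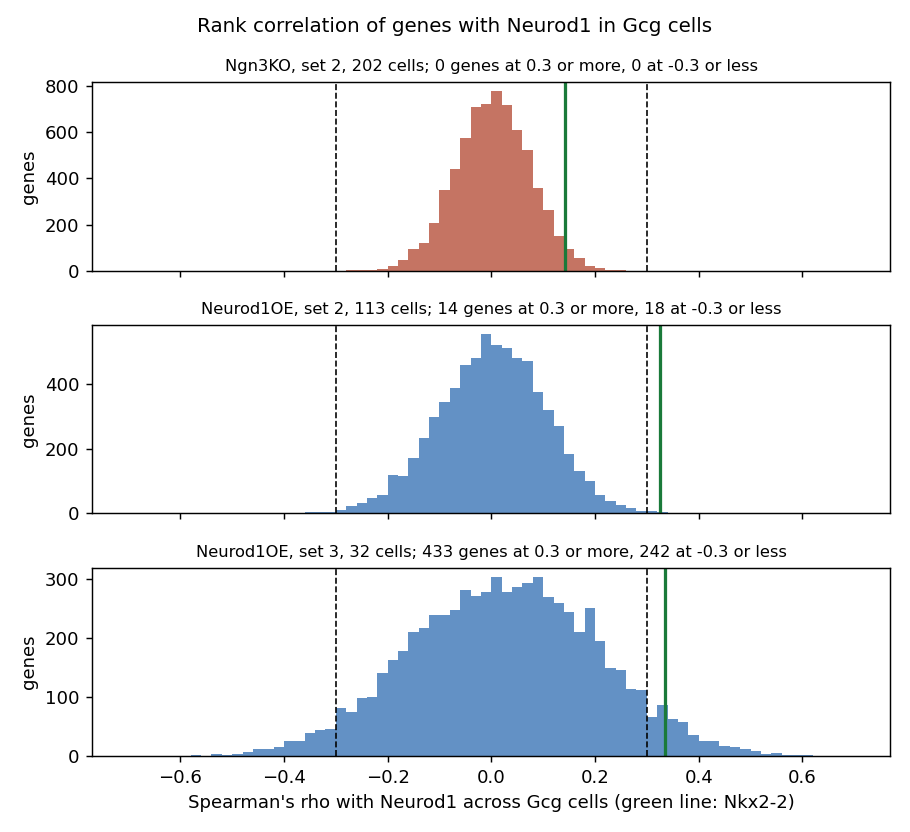
Number of genes (vertical axis) by Spearman's rho with Neurod1 (horizontal axis, no unit) across Gcg cells of Ngn3KO set 2 (top), Neurod1OE set 2 (middle) and Neurod1OE set 3 (bottom); dashed lines mark the limits of -0.3 and 0.3, and the green line marks Nkx2-2. The spread of rho widens from the group with the most cells (top) to the 32 cells of the bottom panel, and Nkx2-2 lies at 0.14, 0.33 and 0.34.

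Nkx2-2, a homeodomain factor required for most islet endocrine cells, had the highest mean rho over the 3 groups, 0.27. It was picked for this mean, so its values in the same cells describe it and are no separate support. Its level in Ngn3KO Gcg cells of set 2 had a lowest, median and highest value of 0, 103.4 and 462 CPM, against 1.42, 104.97 and 555 CPM in Neurod1OE set 2 and 0, 105.7 and 505 CPM in Neurod1OE set 3. Its median was thus the same in all 3 groups to within 3 CPM, while its order within a group ran with that of Neurod1. In Ngn3KO set 2 its median was 79.9, 87.7, 110 and 111.1 CPM in cells with Neurod1 under 100, from 100 to 200, from 200 to 400 and at 400 CPM or more (33, 52, 76 and 41 cells). In Neurod1OE set 2 the same bins had 73.8, 82.1, 103.3 and 121.4 CPM (13, 16, 49 and 35 cells, the lower 2 of them thin). In Neurod1OE set 3 all bins held under 20 cells. The relation was not of 1 strength throughout: in Ngn3KO set 2 rho was 0.26 in Gm12338-positive and -0.03 in the 96 Gm12338-negative cells, while in Neurod1OE set 2 it was 0.30 in 47 positive and 0.39 in 66 negative cells. It kept its sign in every group after thinning, after rescaling with size factors and given total reads and genes detected.

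**Figure D3:**
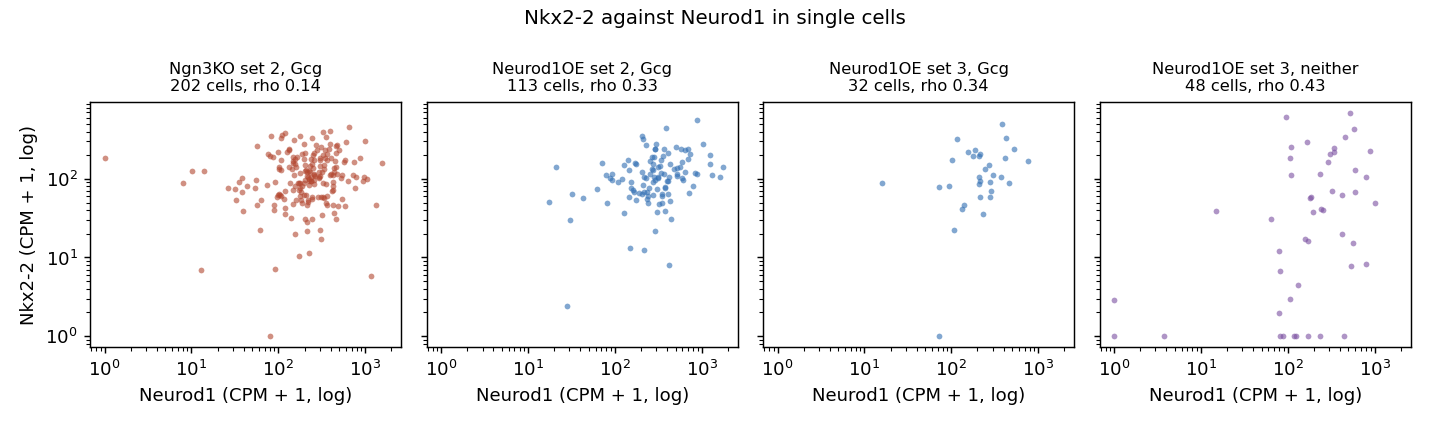
Nkx2-2 against Neurod1, both as CPM + 1 on logarithmic axes, in Gcg cells of Ngn3KO set 2 (red) and of Neurod1OE set 2 and set 3 (blue) and in Neurod1OE cells of set 3 with neither Gcg nor Cpa1 (purple); each point is a cell. Spearman's rho is 0.14, 0.33, 0.34 and 0.43 from left to right, and the points scatter widely about the relation in every panel.

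The other 9 genes with the highest mean rho were Cbfa2t2, a transcriptional corepressor, at 0.26, Ctdsp2, a small phosphatase, at 0.25, Camk2n2, an inhibitor of calcium/calmodulin-dependent kinase, at 0.25, and Rc3h2, an RNA-binding ubiquitin ligase, at 0.24. Qars, a tRNA synthetase, stood at 0.23, Map2k4, a kinase upstream of JNK, at 0.23, Dyrk1a, a protein kinase, at 0.23, Zcchc9 at 0.22 and Tlk1, a chromatin kinase, at 0.22. These 10 genes were picked for their mean, and in Ngn3KO set 2 none exceeded 0.24 (Ctdsp2). In Neurod1OE set 3 rho was at least 0.3 for each of them but Map2k4 (0.29), whereas in Neurod1OE set 2 Nkx2-2 alone reached it. Of these 10 genes, 5 had at least 1 promoter window with an E-box (Nkx2-2, Ctdsp2, Qars, Dyrk1a and Tlk1), beside 72.3% of all windows, and Ctdsp2, Map2k4, Dyrk1a and Tlk1 have more than 1 window each.

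The 10 genes with the lowest mean rho were likewise picked for that mean. Lonp1, a mitochondrial protease, stood at -0.30, Denr, a factor of translation reinitiation, at -0.27, Tceb1, the elongin C subunit, at -0.27, and Trappc13, a subunit of a vesicle tethering complex, at -0.24. The splicing factors Xab2 and Sart1 stood at -0.24 and -0.23, and the mitochondrial genes Mrpl33, Minos1 and Ndufv3 at -0.23, -0.23 and -0.22. Ccpg1os, named as the opposite-strand transcript of Ccpg1, stood at -0.23, and without a stated strand setting its reads and those of the partner gene cannot be told apart. Within Gm12338-negative cells of set 2 the mean rho of Trappc13 was 0.02 and that of Mrpl33 0.06, both of the other sign.

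Of the genes in 13 lists of NeuroD1 targets, E-protein partners, proneural and related bHLH genes, islet transcription factors, pan-endocrine genes, hormones, progenitor, neuronal, cycling, acinar, duct, other cell type and stress genes, 85 had enough reads to be tested in Gcg cells. Past the limit of 0.3 in either direction were 0 of them in Ngn3KO set 2, 2 in Neurod1OE set 2 and 8 in Neurod1OE set 3, read against the shares of all 6894 genes given above. Those 2 were Nkx2-2 and Insm1, a zinc finger factor of endocrine precursors, at 0.31. Insm1 had -0.04 in Ngn3KO set 2, against 0.23 in Neurod1OE set 3. Of the 20 pan-endocrine genes, many of which serve secretory granules, 0, 0 and 1 passed in Ngn3KO set 2, Neurod1OE set 2 and Neurod1OE set 3. Their median rho was -0.01, 0.05 and 0.08, against medians of 0.00, 0.00 and 0.03 over all genes. Of 10 tested NeuroD1 targets, as known from beta and other endocrine cells, 0, 2 and 1 passed in the same order, and Abcc8, a subunit of the KATP channel, had 0.03, 0.02 and -0.11. Of the 8 hormone genes 6 were tested, which leaves out Ins1 and Sst, and 0 of them passed in any group. Pyy had -0.15, -0.20 and -0.15. Of the list of E-protein partners and inhibitors, 6 of 9 genes were tested and 0 passed, with Id2 the 1 Id gene among them. Tcf3, an E-protein, had -0.02 in Ngn3KO, against 0.26 and -0.25 in Neurod1OE of set 2 and set 3.

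Other genes of the same cells did show stronger relations, in a check chosen after the values were seen. The neighbouring homeobox genes Irx1 and Irx2 had a rho of 0.46 with each other in Ngn3KO Gcg cells of set 2 and 0.62 in Neurod1OE Gcg cells of set 2. Put in the place of Neurod1, the other 19 tested islet transcription factors had a median of 0 genes past the limit in Ngn3KO set 2, 31 in Neurod1OE set 2 and 716 in Neurod1OE set 3, against 0, 32 and 675 for Neurod1. Peg3 had the most in Ngn3KO set 2, with 374. The number of genes that followed Neurod1 was thus near that of the median islet transcription factor in each group.

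In the 48 Neurod1OE cells of set 3 with neither Gcg nor Cpa1, a comparison added after the data were seen, Neurod1 ran with many endocrine genes and against some trunk genes. Of 7020 genes with a read in at least 50% of these cells, 313 (4.46%) reached 0.3 and 319 (4.54%) reached -0.3, and the median rho was 0.00. Of 19 tested pan-endocrine genes, 11 reached 0.3 and 0 reached -0.3, with a median rho of 0.35. The highest were Pcsk1n, which encodes a granule inhibitor of prohormone convertase, at 0.53, and the granin genes Scg2 and Chga at 0.47 and 0.45. Of 17 islet transcription factors, 9 reached 0.3, among them Myt1 (0.51), Nkx2-2 (0.43), Pax6 (0.42) and Isl1 (0.41). Of 13 neuronal genes, 7 reached it, and Celf3, an RNA-binding protein gene of neurons, had the highest rho of all list genes, 0.63. On the negative side were 4 of 10 duct and trunk genes, namely Spp1 (-0.55), Sox9 (-0.52), Tead2 (-0.45) and Anxa2 (-0.34), and Id1 (-0.41), an inhibitor of E-proteins. Of 5 hormone genes tested, 0 passed in either direction.

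The values behind this were as follows. Celf3 had a median of 7.39, 138.7, 197.1 and 212 CPM in the cells with Neurod1 under 100, from 100 to 200, from 200 to 400 and at 400 CPM or more (11, 14, 9 and 14 cells, all thin bins). Spp1, a secreted protein gene of duct and trunk, had medians of 1325, 131.7, 26.3 and 17.2 CPM in the same bins. Sox9, a transcription factor of progenitors and duct, had 402, 89.3, 26.3 and 3.65 CPM. Pcsk1n had 10.7, 265, 444 and 909 CPM. Overlap between bins differed by gene. Pcsk1n ranged from 5.59 to 2566 CPM in the lowest bin and from 131.6 to 4689 CPM in the highest, whereas Scg2 ranged from 0 to 8.63 CPM in the lowest bin and from 6.26 to 1117 CPM in the highest. The cells with neither gene thus ran from trunk-rich to endocrine-rich, and the level of Neurod1 and the kind of cell cannot be told apart within them. Without the 3 cells under 10 CPM of Neurod1, 6 of the 19 pan-endocrine genes reached 0.3, with a median of 0.25, and 3 of the 10 duct and trunk genes reached -0.3. Within the 33 male cells, 12 pan-endocrine genes reached 0.3.

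**Figure D4:**
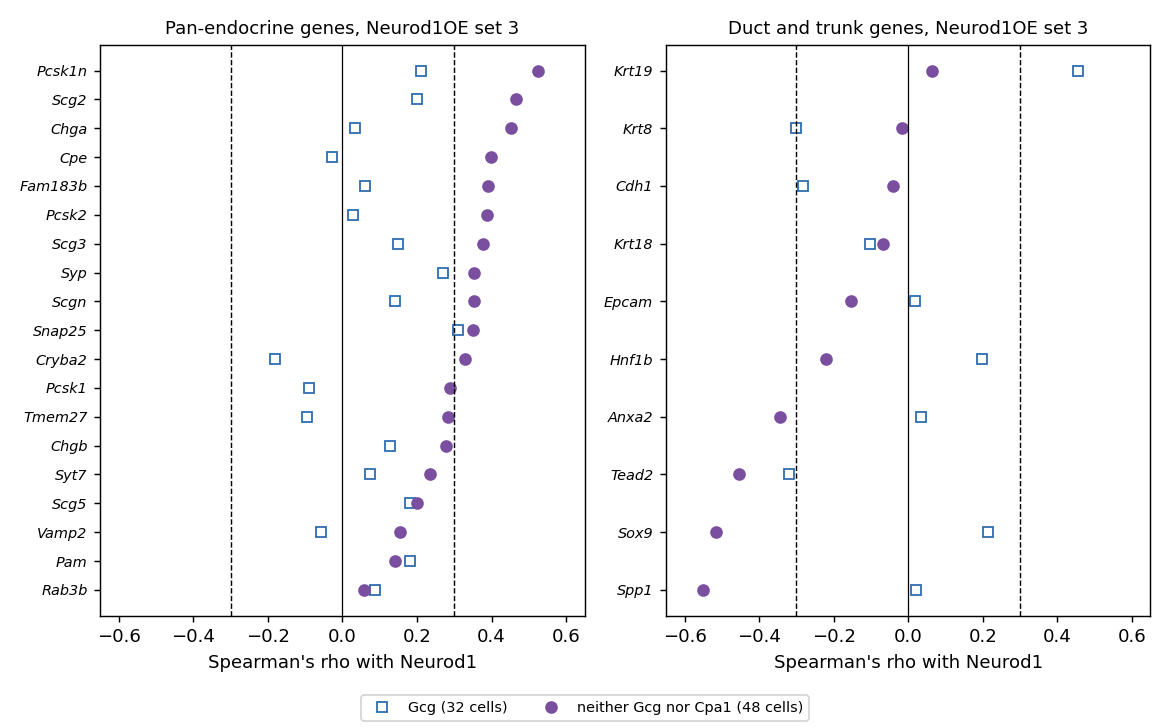
Spearman's rho with Neurod1 (horizontal axis, no unit) of the pan-endocrine genes (left) and the duct and trunk genes (right) with a read in at least 50% of the Neurod1OE cells of set 3 with neither Gcg nor Cpa1; squares are the 32 Gcg cells and filled circles the 48 cells with neither gene of that group, and dashed lines mark -0.3 and 0.3. In the cells with neither gene every pan-endocrine gene lies above 0, whereas in the Gcg cells Snap25 is the only pan-endocrine gene past 0.3.

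**Figure D5:**
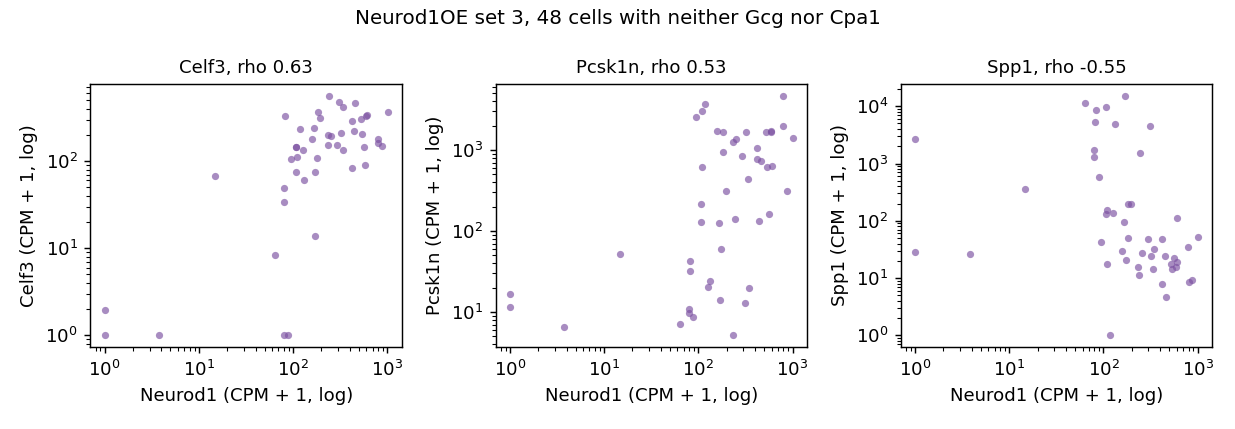
Celf3, Pcsk1n and Spp1 against Neurod1 in the 48 Neurod1OE cells of set 3 with neither Gcg nor Cpa1, as CPM + 1 on logarithmic axes; each point is a cell. Spearman's rho is 0.63, 0.53 and -0.55, and every cell with at least 400 CPM of Neurod1 has at most 110 CPM of Spp1.

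The same genes behaved differently among the Gcg cells of the same genotype and set, although the difference was not tested. There Celf3 had a rho of 0.04, Pcsk1n 0.21, Scg2 0.20, Chga 0.03, Isl1 0.01, Sox9 0.21 and Spp1 0.02, and Nkx2-2, at 0.34, was the gene of these that passed the limit in both states. Other list genes passed it in both states as well. These were Snap25 (0.31 in Gcg cells and 0.35 in cells with neither gene), Pou3f4 (0.35 and 0.33) and Nefm (0.31 and 0.32). The Gcg cells also spanned less of the Neurod1 scale: their middle 50% lay between 137.2 and 289.7 CPM, against 106.1 and 427 CPM in the cells with neither gene. In the 29 Ngn3KO Cpa1 cells of set 3, with a median of 4 Neurod1 reads, 4.96% of 7836 genes reached 0.3 and 5.63% reached -0.3, and Nkx2-2 had 0.04. At 4 reads per cell the counting error of Neurod1 itself limits what such a rho can show.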

How the data were processed

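Smart-seq3 libraries of 447 sorted cells were used, as 2 sparse matrices of raw read counts per gene, which the authors deposited without normalization. Per the submitters' processing notes, the tools were Trimmomatic 0.39, HISAT2 2.1.0 and featureCounts 2.0.0, with mm10. Cell filtering, collapsing of reads by molecule barcode, use of strand and the annotation are not stated there. Each sample is 1 cell, so no doublet caller was run and no cell was removed; totals ran from 25769 to 2788066 reads.

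Counts were divided by each cell's total without the 92 ERCC rows and scaled to CPM. Log2 ratios are of summed CPM + 1. The genes measured in a ratio reached 10 CPM in 1 of its groups, with a read there in 10% of cells or more, and those at least 2-fold apart were called. Spearman's rho was computed on CPM within a group; bins under 20 cells are called thin. Named genes are Neurod1, list members, and the 10 genes with the highest and the 10 with the lowest mean rho over 3 groups, of 1 sign throughout, with a read in at least 50% of cells and a median of at least 20 CPM in 1 group, leaving out predicted and ribosomal protein genes. Other genes were chosen after their values were seen. The gene, the lists and the comparisons were chosen with earlier results of these data known. Sex was read from Xist and 4 Y-linked genes at 10 CPM. The scripts were tested on simulated data. Promoter windows came from RefSeq (GRCm38.p6) and exon lengths from GENCODE M21. Python 3.11.15, numpy 2.4.6, scipy 1.17.1, pandas 2.3.3 and matplotlib 3.10.9 were used, and scaling factors alone came from edgeR 4.0.16 and DESeq2 1.42.0 under R 4.3.3. Alternatives covered scaling, the total, depth, limits, sub-blocks and cycling cells. Some marker genes are not reported here.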

Additional observations from a re-analysis of the deposited data

How the results depend on the processing

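Every direction between genotypes in set 3, and Gcg over Cpa1 cells, held under all alternatives run. In set 2 the log2 ratio of Neurod1, Ngn3KO over Neurod1OE, was -0.13 with TMM, -0.12 with DESeq2 size factors, -0.42 with cells weighted equally, 0.087 in Gm12338-positive, -0.42 in Gm12338-negative and -0.36 in female cells. In Gcg cells of set 2 it was -0.19 with DESeq2 factors, -0.44 with equal weights, 0.093 and -0.52 in Gm12338-positive and Gm12338-negative cells and -0.46 in female cells. Over all cells of set 3 it was -2.32 (TMM), -2.19 (DESeq2), -3.90 (equal weights), -3.74 without the cell with the most Neurod1 reads in each group, -3.07 in Gm12338-negative and -2.98 in male cells. In Cpa1 cells it was -1.06 (TMM), -1.02 (DESeq2), -2.23 in Gm12338-negative cells (1 Neurod1OE cell), -1.84 in male cells and -0.97 without cells with hormone RNA. Gcg over Cpa1 cells gave 2.91 with hormone genes left out of the total, 3.68 with equal weights and 3.11 with states at 2000 CPM. Gcg cells over cells with neither gene gave -0.024 (TMM), 0.0044 (DESeq2), -0.017 (hormone genes left out), 0.33 (equal weights) and -0.039 (states at 2000 CPM).

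The genes past the limit on rho are given as shares of the genes tested, in place of counts, a choice made after seeing the data. With the 12266 genes read in 10% of cells the counts in Neurod1OE set 3 were 803 positive (6.55%) and 403 negative (3.29%), against 433 and 242, and in Neurod1OE set 2 28 negative (0.228%), against 18; more genes were tested there. In Ngn3KO set 2 the positive share was 0.0145% with DESeq2 factors and 0.102% in both Gm12338 blocks, and the negative share 0.160% in Gm12338-positive and 0.203% in Gm12338-negative cells and 0.0145% without cycling cells and at 10000 CPM of Gcg. In Neurod1OE set 2 the positive share was 0.102% (DESeq2), 0.116% (TMM), 2.07% and 0.667% (Gm12338-positive and Gm12338-negative), 0.638% (10000 CPM of Gcg), 0.130% (genes read in 10% of cells) and 0% (limit 0.4), and the negative share 3.05% and 0.870% in the blocks, 0.566% at 10000 CPM of Gcg and 0.0145% at the limit 0.4. In Neurod1OE set 3 the positive share was 11.02% (DESeq2) and 1.78% (limit 0.4), and the negative share 1.28% (DESeq2), 1.55% (TMM), 5.73% (given total reads and genes), 6.60% (thinned) and 0.899% (limit 0.4). In cells with neither gene the positive share was 6.95% in male and 7.15% in Gm12338-positive cells and the negative share 2.29% (DESeq2), 2.89% (TMM) and 7.45% (male), with 6 pan-endocrine genes without cells under 10 CPM of Neurod1. The cause was not tested. Of 180 mean rho values of the 20 named genes under alternatives, 23 moved by more than 0.1 and 2 changed sign, Trappc13 (0.022) and Mrpl33 (0.058), in the Gm12338-negative cells of set 2.

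The alternatives on sub-blocks within set 3, on female cells, on cells with hormone RNA and on cells with neither gene were chosen after seeing the data. Scaling to ERCC reads was not run, because 21 cells hold any and at most 2. No paired analysis was possible because the title numbers name single cells, which are not pairs, and no test was made. With 1 sample a genotype, litter, plate and genotype cannot be told apart.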
